A study of Mus musculus with 22 samples.

Results

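Untreated primary hepatocytes were compared with untreated hepatic stellate cells, both from chow-fed wild-type C57BL/6 mice. The comparison used 10 of the 22 libraries of the series, the 6 hepatocyte controls and 4 of the 5 stellate cell controls (numbers 1, 2, 4 and 5), all given placebo. The libraries were chosen by their labels and by the sum of their deposited FPKM values (counts scaled to exon length and library size), and stellate control 3 was left out because its sum of 483000 was over the limit of 400000. The other 4 stellate controls summed to 297988 to 306962, and the hepatocyte controls to 335984 to 346321. Per the labels, cells were plated, received fresh medium after 24 h and were collected 24 h later. Hepatocytes grew in Williams Medium E on collagen-coated plates and stellate cells in DMEM, both with 10% serum, and the deposited values of each cell type stand in a table of their own. Cell type, medium, plate coating and table therefore cannot be told apart. Calls were therefore limited to large differences, and smaller ones are given as values only. Age and sex of the mice are not stated, nor is it stated whether libraries came from separate animals or cultures, so a p-value here speaks only of how much libraries vary, and that variation may be technical.

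Hepatocytes are the epithelial cells of the liver. They secrete most plasma proteins, dispose of nitrogen and drugs, make bile acids, store iron and release hepcidin, the hormone that lowers iron export from cells by binding ferroportin. Hepatic stellate cells lie between hepatocytes and the sinusoidal endothelium, store vitamin A as retinyl esters and, when cultured on plastic or in injured liver, turn into contractile myofibroblasts that lay down collagen. The endothelium and stellate cells are also sources of bone morphogenetic proteins (BMPs), which raise hepcidin transcription in hepatocytes.

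Total counts ranged from 19342490 to 41839154 in the hepatocyte libraries and from 22600942 to 32067635 in the 4 stellate libraries. Library profiles correlated at 0.992 to 0.996 among hepatocytes, 0.985 to 0.991 among stellate cells and 0.720 to 0.737 between them (Pearson's r across genes of log2 values, a description in which genes are not independent). Levels below are TMM-normalised CPM, that is counts scaled to library size. A log2 difference is the fitted value of hepatocyte over stellate libraries, given with its SE, so that positive values mean higher in hepatocytes. A gene was called when the edgeR quasi-likelihood test gave a Benjamini-Hochberg adjusted p under 0.05 over all 16546 genes tested and the difference was at least 2 (4-fold). By this rule 1618 genes (9.78%) were higher in hepatocytes and 2349 (14.2%) were higher in stellate cells. At any size 13515 genes passed the test (81.7%), 6717 (40.6%) higher in hepatocytes and 6798 (41.1%) higher in stellate cells, and the libraries of the groups did not overlap for 11944 genes (72.2%). The median difference of all genes tested was 0.0. These are the background shares against which the counts of each list below are to be read. Because the samples are cultures in bulk, fewer cells of a type and less RNA per cell cannot be told apart.

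Some of the largest differences lay in genes that all cells use. Several of these were near 0 in every stellate library of the series, treated ones included. Over the 10 libraries of the stellate table the vesicle transport GTPase Arf4 had 13 counts, against 170112 over the 12 libraries of the hepatocyte table. Ndufs3, a subunit of respiratory complex I, had 19 against 31619, and Marchf5, a mitochondrial ubiquitin ligase, had 0 against 62972. The reverse was seen for the ribosomal protein genes Rps2 (9779 counts over the hepatocyte table, 275689 over the stellate table) and Rps18 (8606 and 131852). Of 13958 protein-coding genes tested, 33 had at most 3 counts over the whole stellate table although every hepatocyte control had at least 10 CPM, and 7 showed the reverse. Several of the 33 were neighbours. On chromosome 16 (18052860 to 18479073, mm10) a run of 11 tested genes from Dgcr6 to Txnrd2, with Ranbp1 and Dgcr8 inside it, had a median log2 difference of 10.92, while the next genes on either side, Slc25a1 and Gnb1l, differed by 0.22 and 0.36. Runs of at least 5 neighbours called higher in hepatocytes numbered 13 with mixed gene names (93 genes) and 9 in which most names shared a stem (72 genes). Runs higher in stellate cells numbered 5 mixed (26 genes) and 7 with mostly 1 stem (60 genes). Mixed means only that no stem of 3 letters held most names. The mixed runs thus include Ahsg, Fetub, Hrg, Kng2 and Kng1 (median log2 difference 4.28), with members of the plasma protein list below. Prodh, Gstp1, Gstp2, Gstp3, Ugt3a2, Mat2a, Pygm, Atp5a1, Ndufs3, Uqcrc1, Slc30a1, Rps2 and Rps18 belong to lists below. For these, a difference between cells cannot be told apart from a difference in how the tables were made. The same holds for Marchf5, Arf4, Psme2b, Myadm, Pgm1, Ranbp1, Cep170b, Ppp1ca and Jund, which stood among the 15 largest called differences toward hepatocytes at a mean of at least 50 FPKM. In 9 families that every cell needs (ribosomes, proteasome, respiratory chain, splicing and others, chosen after the values were seen), 8 of 393 tested genes were called higher in hepatocytes (2.04%) and 5 in stellate cells (1.27%).

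**Figure D1:**
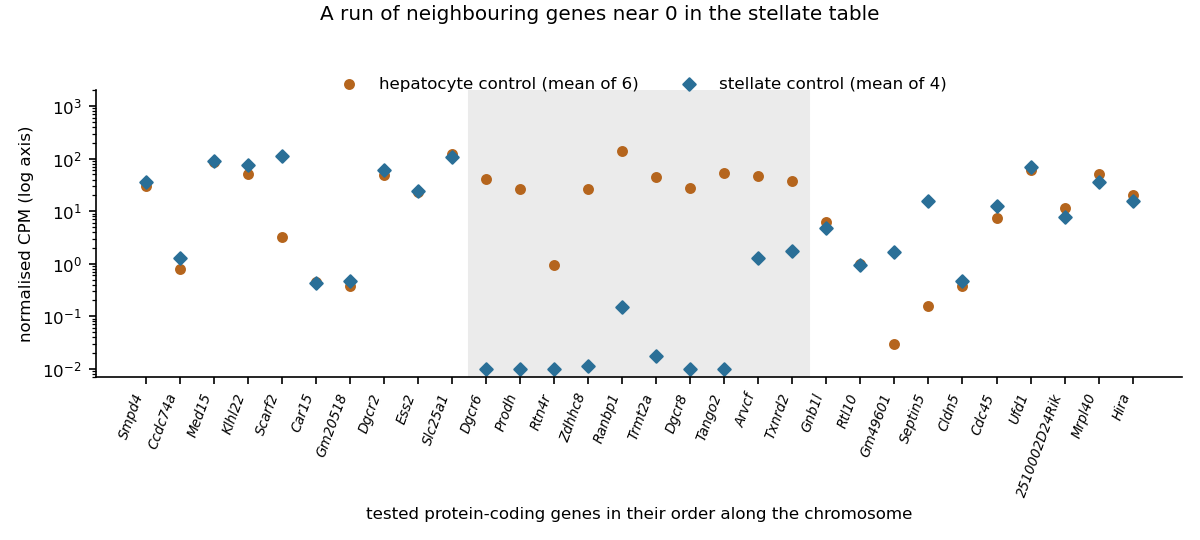
Mean CPM (log axis, values under 0.01 drawn at 0.01) of the tested protein-coding genes along a stretch of chromosome 16, in their order, as the mean of 6 hepatocyte controls (circles) and of 4 stellate controls (diamonds). In the shaded run, of which 10 genes are drawn, the stellate means lie between 0 and 1.74 CPM, while Slc25a1 before it and Gnb1l after it are at like levels in both groups.

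The labelled cell types were checked against 6 marker genes. Albumin, Alb, the main protein of plasma (ENSMUSG00000029368, chr5:90460897-90476602, mm10), had a lowest, median and highest level of 6894, 7814 and 8403 CPM in the hepatocyte libraries and 147, 112, 86.2 and 97.7 CPM in stellate controls 1, 2, 4 and 5. Every hepatocyte library was far above every stellate library, by a log2 difference of 6.14 ± 0.14 (edgeR adjusted p = 1.47e-19). Apoa1, the main protein of high-density lipoprotein, was at 331, 366 and 399 CPM in hepatocytes and at 19.4, 26.0, 19.0 and 14.7 CPM in stellate cells (4.22 ± 0.11). Hamp, which encodes hepcidin (chr7:30942368-30944032), was at 683, 796 and 877 CPM in hepatocytes and at 0.477, 1.02, 0.533 and 0.194 CPM in stellate cells. Hamp was thus nearly confined to the hepatocyte libraries, which held 157722 counts of it against 58 (log2 difference 10.52 ± 0.15; adjusted p = 1.40e-22).

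The 3 stellate markers ran the other way. Col1a1, a chain of type I collagen (chr11:94936224-94953042), was at 15.2, 17.6 and 23.2 CPM in hepatocytes and at 2987, 2728, 3216 and 3062 CPM in stellate cells (−7.38 ± 0.09; edgeR adjusted p = 2.20e-23). Smooth muscle actin Acta2, the usual marker of the myofibroblast state, was at 1.32, 2.56 and 4.83 CPM in hepatocytes and at 3591, 3432, 3300 and 3300 CPM in stellate cells (−10.30 ± 0.19). Pdgfrb, the receptor through which platelet-derived growth factor drives stellate cell growth, was at 0, 0.0834 and 0.260 CPM in hepatocytes and at 439, 403, 466 and 404 CPM in stellate cells (−12.16 ± 0.13; 18 counts in the 6 hepatocyte libraries together). Each of the 6 markers was higher in the cell type it was chosen to mark, and none had overlapping groups. Absence of overlap alone says little, since it held for 72.2% of all genes tested. Traces ran in both directions. The stellate libraries held Alb at 1.11% to 1.89% of its mean level in hepatocytes, Apoa1 at 4.01% to 7.07% and Trf at 0.337% to 0.572%, but Hamp at 0.0244% to 0.129%. The hepatocyte libraries held Col1a1 at 0.507% to 0.775%, Acta2 at 0.0386% to 0.142% and Pdgfrb at 0% to 0.0606% of the stellate mean. In the stellate libraries the shares of Apoa1 and Hamp thus differed by over 10 times.

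**Figure D2:**
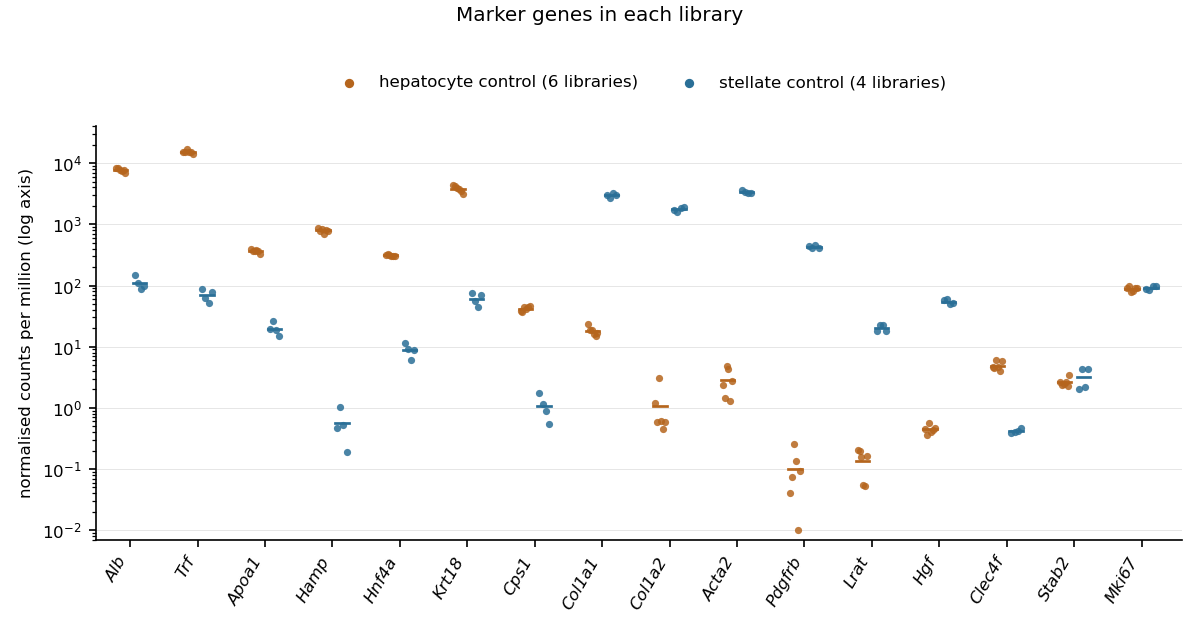
Level of 16 marker genes in each library (normalised CPM, log axis, values under 0.01 drawn at 0.01), with 1 point per library and a bar at the group mean. Hepatocyte markers from Alb to Cps1 and stellate markers from Col1a1 to Hgf separate without overlap, while the proliferation gene Mki67 lies at 78.4 to 99.4 CPM in hepatocytes and 85.4 to 98.1 CPM in stellate cells.

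Plasma proteins made by the liver were the largest block on the hepatocyte side. All 35 listed genes were tested and called higher in hepatocytes, with a median log2 difference of 5.84, and their summed level was 43350 to 49460 CPM in hepatocytes against 597.5 to 840.3 CPM in stellate cells. Trf, which encodes transferrin, the iron carrier of plasma, was the most abundant of them, at 14150, 15280 and 17280 CPM in hepatocytes and 88.3, 61.9, 52.1 and 78.8 CPM in stellate cells (7.78 ± 0.14). Compared per length, mean FPKM in hepatocytes was 4651 for Trf, 3321 for Alb, 3003 for the vitamin D-binding protein gene Gc, 2169 for hemopexin Hpx and 914 for haptoglobin Hp. The acute phase genes Saa1 (7.62 ± 0.20) and Orm1 (7.60 ± 0.16) had among the largest differences of the list, and Fetub the smallest (3.16 ± 0.11). Of 12 apolipoprotein genes 10 were called higher in hepatocytes. Apob, the scaffold of very-low-density lipoprotein, was at 2106, 2726 and 3000 CPM against 74.7, 49.6, 33.8 and 48.1 CPM (5.66 ± 0.18), and Apoe had a mean FPKM of 1883 against 90.2. Apod was the exception called toward stellate cells, at most 0.0408 CPM in hepatocytes against 0.572 to 0.931 CPM in stellate cells (−5.33 ± 0.51), and Apoa4 did not pass (−0.17 ± 0.19, adjusted p = 0.410).

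Because these genes were higher together, the promoters of the list were searched for the letters GTTAAT on both strands. Promoters here are the RefSeq sequences (GRCm38.p6) from 250 bases before to 50 bases after a start site, with 30 promoters for 27 of the 35 genes. GTTAAT stood in 13 of the 30 (43.3%), in 4.93% of promoters of all genes tested and in 7.10% of all 32851 promoters of the table. Its share was 9.88% among all genes called toward hepatocytes and 5.54% among those called toward stellate cells. The HNF4 site CAAAGTCCA, also searched, stood in 0 of the 30. It is rare, at 0.488% of promoters of all genes tested. Among genes called toward hepatocytes it stood in 1.99%, and among those called toward stellate cells in 0.331%. The windows below, from genes at 22.2 CPM or more in every hepatocyte library, show GTTAAT in capitals with 10 bases on each side, read on the strand named.
Alb, chr5:90460828-90460853, plus strand: ggtaagtatgGTTAATgatctacagt
Gc, chr5:89457935-89457960, minus strand: cagtgacaaaGTTAATgattaaaacc
Fga, chr3:83026100-83026125, minus strand: ccggcaggagGTTAATcatcaccctt
Fgb, chr3:83049877-83049902, plus strand: cctccctttaGTTAATatttgacatt
Itih1, chr14:30943301-30943326, plus strand: cagactgttaGTTAATactgtgctgg
Cp, chr3:19956850-19956875, minus strand: atatgtcattGTTAATgatttttaga
Vtn, chr11:78498998-78499023, minus strand: agccagtcccGTTAATctccctgagc
Serpina1a, chr12:103863625-103863650, minus strand: ggtgacattgGTTAATattcactagc
Serpina1b, chr12:103738200-103738225, minus strand: ggtgacattgGTTAATattcactagc
The windows of Serpina1a and Serpina1b were identical, as were those of Serpina1c, Serpina1d and Serpina1e, so this family contributes 5 of the 13 matches with 1 sequence, and reads of its near-identical genes can be divided among them by the counting. The 250 bases before the Alb start site are shown because Alb is the defining marker, with the match in capitals near the 3′ end.
Alb promoter, chr5:90460620-90460869, plus strand: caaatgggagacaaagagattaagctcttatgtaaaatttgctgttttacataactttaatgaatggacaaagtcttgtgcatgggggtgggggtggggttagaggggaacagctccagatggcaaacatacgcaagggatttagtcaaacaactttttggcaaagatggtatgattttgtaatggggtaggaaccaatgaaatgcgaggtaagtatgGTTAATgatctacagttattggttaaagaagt
A match is a description of letters and not evidence of binding.

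The transcription factors that set hepatocyte identity were called higher in hepatocytes in 19 of 23 cases (median log2 difference 3.84; 21 passed at any size). None was called toward stellate cells. Hnf4a, a nuclear receptor needed for the hepatocyte program, was at 299, 309 and 322 CPM against 11.3, 9.26, 6.11 and 8.79 CPM (5.12 ± 0.10). The pioneer factor Foxa3 differed by 6.81 ± 0.15. The receptors for bile acids (Nr1h4, 2.18 ± 0.05) and xenobiotics (Nr1i2, 5.15 ± 0.13) were also called. Cebpb ran toward stellate cells (−1.03 ± 0.13), short of a call, and Rxra did not pass (0.01 ± 0.05, adjusted p = 0.865). Epithelial genes followed, with 15 of the 19 tested of 20 members called (median 4.76). E-cadherin, Cdh1, was at 146, 155 and 160 CPM against 2.64, 2.97, 1.63 and 1.43 CPM (6.16 ± 0.11), and the keratin gene Krt18 at 3152, 3880 and 4409 CPM against 76.3, 55.6, 44.3 and 69.0 CPM (5.97 ± 0.14). The neural cadherin Cdh2, which hepatocytes share with mesenchymal cells, was at 134 to 155 CPM in hepatocytes and 382 to 427 CPM in stellate cells (−1.48 ± 0.05).

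Metabolic pathways differed in depth. In the urea cycle, which turns ammonia into urea, 3 of 8 genes were called, the mitochondrial steps Cps1 (37.3, 42.6 and 46.4 CPM against 1.78, 1.15, 0.888 and 0.542 CPM; 5.22 ± 0.15), Nags (5.11 ± 0.15) and Otc (3.83 ± 0.22). Of the cytosolic steps, Ass1 was at 131, 152 and 168 CPM in hepatocytes and 134, 138, 139 and 126 CPM in stellate cells (0.16 ± 0.07). The groups overlapped for Ass1. Asl, the next step, was at 100, 112 and 123 CPM against 39.1, 44.2, 44.5 and 42.7 CPM without overlap (1.38 ± 0.06), and Arg1, which releases urea, had a mean FPKM of 2.32 and 0.652 (1.86 ± 0.22), both short of a call. Of 28 amino acid catabolism genes 15 were called (median 2.38), among them Tdo2, which opens the kynurenine pathway of tryptophan (5.48 ± 0.15), and Ftcd, which feeds histidine carbon to folate (7.08 ± 0.12). Prodh of the same list lies in the chromosome 16 run described above. In the gluconeogenesis list 4 of 9 were called. Of these only Fbp1 is an enzyme of the pathway, and the others are regulators or a secreted binding protein. Fbp1, the fructose-bisphosphatase, was at 46.3, 48.8 and 54.2 CPM against 1.68, 0.975, 0.959 and 0.581 CPM (5.52 ± 0.13). Pck1 and G6pc, the steps most used to mark the pathway, stayed at or under 6.26 and 1.58 CPM in every hepatocyte library. Pcx and Pck2 differed by 0.16 ± 0.06 and 0.30 ± 0.07.

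Bile acid genes were called in 13 of the 17 tested of 18 members (median 3.33). Baat, which joins bile acids to taurine (6.35 ± 0.19), and the canalicular exporters Abcc2 (384, 423 and 445 CPM against 41.4, 21.3, 17.4 and 33.9 CPM; 3.88 ± 0.17) and Abcb11 (4.34 ± 0.21) were called. Cyp7a1, the first enzyme of the classic pathway, was not tested, with at most 0.0469 CPM in hepatocytes and 0.213 CPM in stellate cells. Cytochrome P450 genes of drug metabolism were called in 19 of 24 cases toward hepatocytes (median 3.80), led per length by Cyp2c70 (mean FPKM 164 in hepatocytes; 283, 330 and 381 CPM against 13.3, 8.20, 1.88 and 9.60 CPM; 5.29 ± 0.25). Both exceptions were large. Cyp1b1, an enzyme of fibroblasts and other extrahepatic cells, was at 1.92, 2.33 and 2.68 CPM in hepatocytes and 1580, 1476, 1547 and 1470 CPM in stellate cells (−9.32 ± 0.07; adjusted p = 4.51e-26), and with it the summed level of the list was 728.0 to 844.5 CPM in hepatocytes and 1927 to 2130 CPM in stellate cells. Cyp2a5 was at 5.06, 5.92 and 6.18 CPM against 103, 67.1, 65.3 and 98.6 CPM (−3.87 ± 0.12), and it shares near-identical sequence with Cyp2a4. Conjugating enzymes were called in 14 of 21 cases toward hepatocytes and in 1, Gstm2 (−2.09 ± 0.05, and −1.92 with no call once stellate control 3 was added), toward stellate cells. Ugt2b36, a glucuronosyltransferase, was at 348, 376 and 404 CPM against 16.8, 10.1, 3.98 and 10.6 CPM (5.17 ± 0.21). The 14 include members in doubt for their tables, among them Gstp1, Gstp2 and Ugt3a2.

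Lipid and energy genes differed less. Fatty acid oxidation genes leaned toward hepatocytes (median 0.90) with 5 of 24 called. Mttp, which loads lipid onto Apob, was the lipogenesis and lipid transport gene with the largest difference toward hepatocytes (4.13 ± 0.08), and Scd2, a desaturase, ran toward stellate cells (−6.72 ± 0.09, mean FPKM 0.472 against 48.9). In the lipogenesis list as a whole 5 of 24 were called toward hepatocytes and 1 toward stellate cells (median 0.37). In cholesterol synthesis 1 of 24 was called, and the median was −0.44. Of 23 respiratory chain genes 3 were called, and these were Atp5a1, Ndufs3 and Uqcrc1, all in doubt for their tables, and the median was 0.55. Among genes used as references, 0 of 15 common reference genes were called by edgeR (median 0.05; 10 passed at any size), and of 34 ribosomal protein genes 2, Rps2 and Rps18, were called (median 0.35). Of 32 cell cycle genes edgeR called 0 toward hepatocytes (6 passed at any size) and 2 toward stellate cells (19 passed at any size), with a median of −0.26. Their summed level was 1745 to 1949 CPM in hepatocytes and 2890 to 3020 CPM in stellate cells, without overlap. The called genes were Ccnd2, a D-type cyclin, at 22.7, 25.6 and 26.0 CPM against 622, 578, 609 and 572 CPM (−4.57 ± 0.05), and the inhibitor Cdkn2a (−4.07 ± 0.19).

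**Figure D3:**
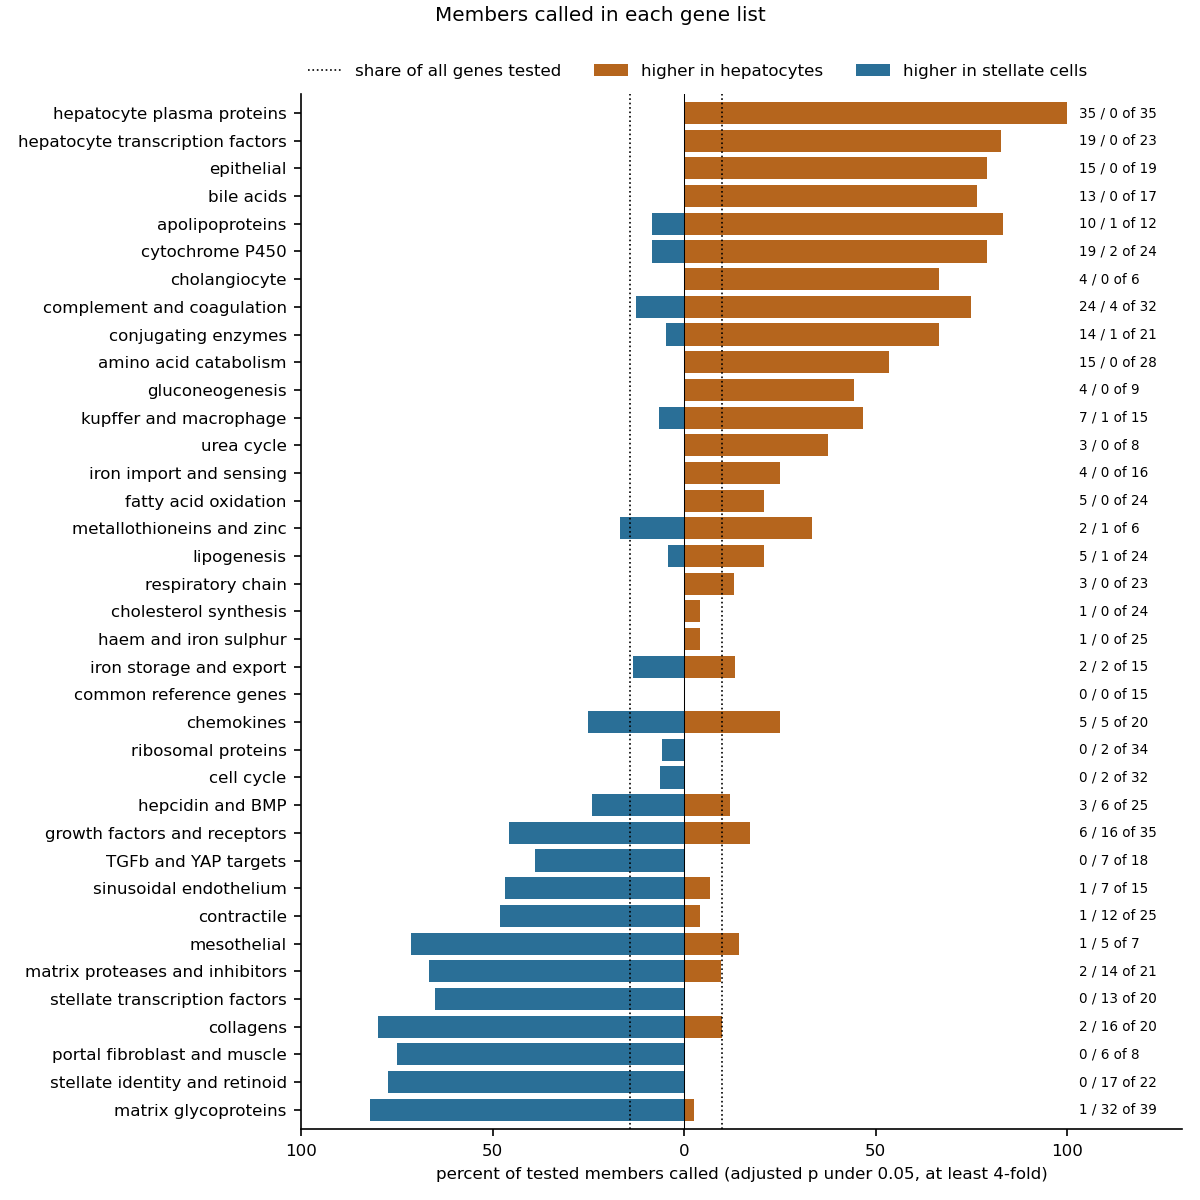
Percent of tested members of each list (lists with at least 5 tested) that were called higher in hepatocytes (right) or in stellate cells (left), with the counts printed at the right and dotted lines at the shares of all genes tested (9.78% and 14.2%). Plasma proteins reach 35 of 35 toward hepatocytes and collagens 16 of 20 toward stellate cells.

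For many reactions the genome holds a form typical of hepatocytes and forms used elsewhere, and 19 such steps were listed. The hepatocyte form was called higher in hepatocytes for 14 of 19 and toward stellate cells for 0, and of 25 other forms 9 were called toward stellate cells and 5 toward hepatocytes. Hexokinase Hk1, a form used outside hepatocytes, had a mean FPKM of 1.97 in hepatocytes and 18.1 in stellate cells (log2 difference −3.21 ± 0.06). Pyruvate kinase ran the same way by level only in part. The liver form Pklr was at 79.0 FPKM in hepatocytes and 1.15 in stellate cells (6.10 ± 0.12), but Pkm, the form of other tissues, was at 145.6 and 296.4 FPKM, so it exceeded Pklr in the hepatocytes as well. Rbp4, the retinol carrier of plasma, was at 220.2 and 10.4 FPKM (4.40 ± 0.11). The retinaldehyde dehydrogenase Aldh1a1 was at 1168 and 208.3 FPKM (2.49 ± 0.06), while Aldh1a2 (−6.13 ± 0.19) and Aldh1a3 (−4.72 ± 0.25) were called toward stellate cells at under 5 FPKM. Adh1, the main hepatic alcohol dehydrogenase, did not follow its label, with 25.2 FPKM in hepatocytes and 71.5 ± 15.1 (SD, n = 4) in stellate cells (−1.51 ± 0.09), and the liver fatty acid-binding protein Fabp1 differed by 0.87 ± 0.13 only. The other forms called toward hepatocytes were Fbp2, Arg2, Alas2, Mat2a and Pygm, of which Mat2a and Pygm lie in runs in doubt.

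**Figure D4:**
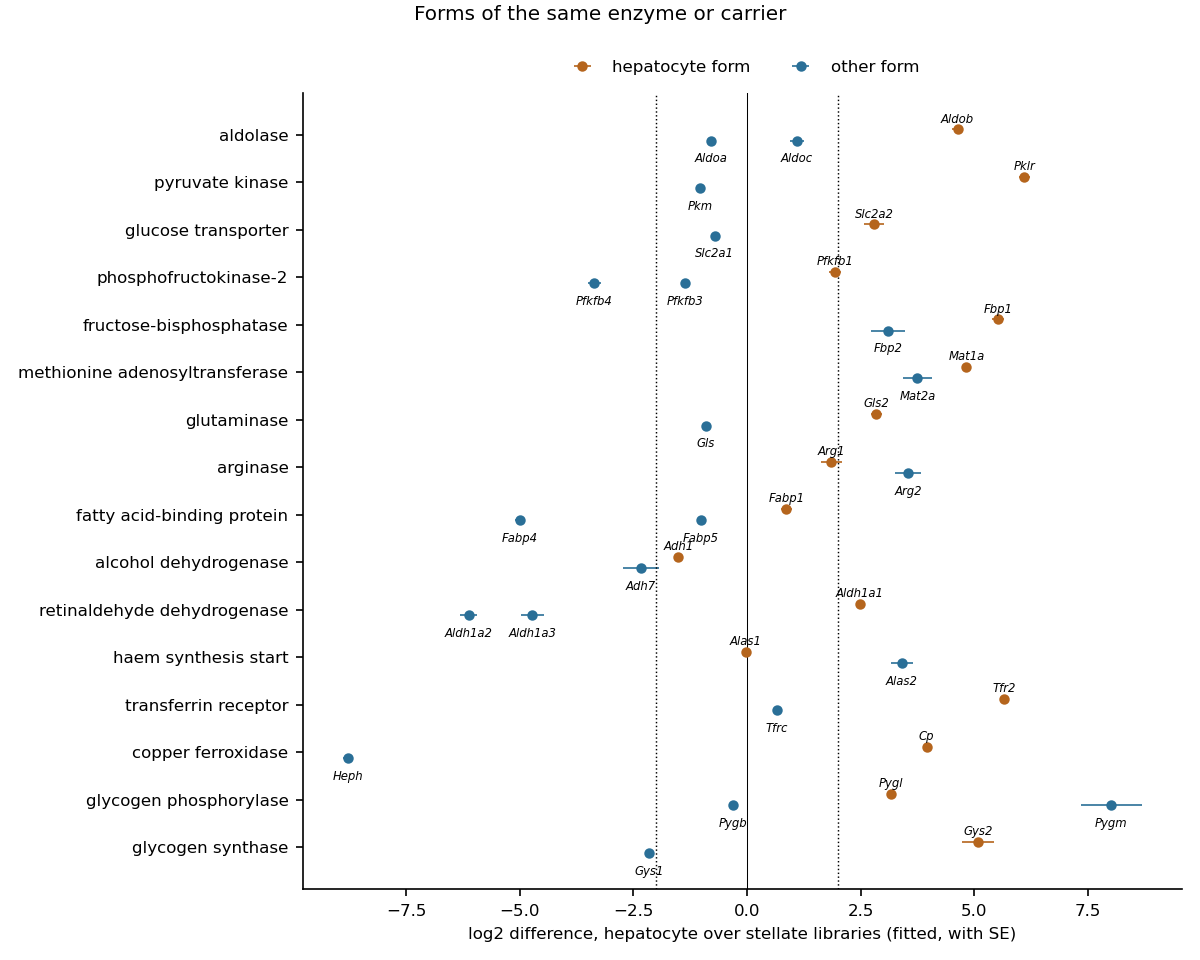
Fitted log2 difference, hepatocyte over stellate libraries, with its SE, for the hepatocyte form and the other forms of 16 of the enzymes and carriers. Dotted lines mark differences of 2 in either direction. Of the forms drawn, 11 of 16 hepatocyte forms lie right of the upper line and 7 of 21 other forms lie left of the lower line.

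Most iron genes were not called in either direction, as was true of all genes tested, of which 24% were called. Cells take up iron as transferrin through receptors, hold it in ferritin, and release it through ferroportin (Slc40a1) with the help of a copper ferroxidase. Of 16 import and sensing genes 4 were called toward hepatocytes (median 0.75). Of 15 storage and export genes 2 were called in each direction (median 0.03). Of all genes tested, 9.78% were called toward hepatocytes and 14.2% toward stellate cells. Besides Trf, the liver-type transferrin receptor Tfr2, which senses saturated transferrin (chr5:137569840-137587481), was at 105, 114 and 125 CPM in hepatocytes and at 2.26, 2.26, 2.06 and 2.40 CPM in stellate cells. That is a log2 difference of 5.66 ± 0.08 (edgeR adjusted p = 1.40e-22) with no overlap. The general receptor Tfrc was at 107, 111 and 128 CPM against 76.9, 73.7, 70.6 and 69.2 CPM (0.66 ± 0.06), so it was present in both cell types. Hemopexin Hpx, which carries free haem, was at 2762, 3307 and 3653 CPM against 63.0, 30.9, 37.8 and 38.3 CPM (6.25 ± 0.17), and the haptoglobin receptor Cd163, a macrophage gene, was called at low level (0.311 to 0.819 CPM against at most 0.116 CPM; 3.32 ± 0.60). The importers Slc11a2 (−0.42 ± 0.06), Slc39a14 (0.89 ± 0.05) and Slc39a8 (0.11 ± 0.07, adjusted p = 0.135) and the iron-regulatory proteins Aco1 (1.65 ± 0.05) and Ireb2 (0.25 ± 0.05) stayed under the 4-fold limit. Lrp1, a receptor for haem bound to hemopexin, was at 753 to 880 CPM against 1632 to 1901 CPM (−1.14 ± 0.06).

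Ferritin and ferroportin transcripts differed by well under the 4-fold limit between the cell types. Ferritin heavy chain Fth1 was at 2543, 2614 and 2940 CPM in hepatocytes and 3794, 3399, 3351 and 3390 CPM in stellate cells (−0.39 ± 0.05), and light chain Ftl1 differed by −0.35 ± 0.07. Reads of both can be divided with near-identical pseudogenes. Slc40a1 was at 197, 205 and 208 CPM in hepatocytes and at 169, 176, 165 and 159 CPM in stellate cells. The groups did not overlap, but the difference was 0.29 ± 0.04 (edgeR adjusted p = 2.23e-06), so the exporter was at nearly the same level in both. Its ferroxidase partner differed. Ceruloplasmin, Cp, was at 2804, 3057 and 3312 CPM in hepatocytes and 231, 201, 185 and 172 CPM in stellate cells (3.95 ± 0.08). Hephaestin, Heph, the membrane-bound form best known from the gut, was at 0.104, 0.257 and 0.445 CPM in hepatocytes and at 115, 131, 121 and 109 CPM in stellate cells (chrX:96455359-96574485; −8.77 ± 0.12; adjusted p = 4.10e-23), with 54 counts over 6 hepatocyte libraries and 12782 over 4 stellate libraries. Per length, stellate cells held Cp and Heph at 20.5 and 15.5 FPKM and hepatocytes at 319.4 and 0.0333 FPKM. Haem oxygenase Hmox1, which opens haem and frees its iron, was at 306, 348 and 365 CPM in hepatocytes and 4252, 3993, 4045 and 3852 CPM in stellate cells (−3.56 ± 0.06). The siderophore-binding protein Lcn2 ran the other way, at 373, 469 and 527 CPM against 32.8, 20.7, 15.1 and 25.2 CPM (4.27 ± 0.16).

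Of hepcidin and the genes that control it, most were not called. Of 26 members 25 were tested, 3 were called toward hepatocytes and 6 toward stellate cells (median −0.59). Of all genes tested, 9.78% and 14.2% were called in these directions. Called toward hepatocytes were Hamp itself, the BMP co-receptor Hjv (8.07, 8.65 and 9.02 CPM against 0.763, 0.665, 0.249 and 1.39 CPM; 3.49 ± 0.21) and Tmprss6, the protease that cleaves Hjv (166, 185 and 199 CPM against 1.84, 0.931, 1.67 and 1.12 CPM; 6.99 ± 0.11). The ligands lay on the stellate side. Bmp6, the main iron-responsive ligand of liver endothelium, was at 8.22, 9.38 and 9.66 CPM in hepatocytes and 71.2, 68.5, 73.9 and 68.9 CPM in stellate cells (−2.94 ± 0.06). Bmp5 was at 0, 0.115 and 0.163 CPM against 66.0, 73.5, 64.8 and 62.5 CPM (−9.33 ± 0.14), and Bmp2 and Bmp4 were called with −2.93 ± 0.21 and −2.35 ± 0.07. Il6, the cytokine that raises hepcidin in inflammation, was at most 0.156 CPM in hepatocytes and at 61.1, 66.3, 60.2 and 69.5 CPM in stellate cells (−9.77 ± 0.15). Receptors and signal carriers were present in both, with Bmpr1a at −0.28 ± 0.05, Acvr1 at −0.45 ± 0.05, Smad1 at −0.65 ± 0.05 and Smad5 not passing (−0.11 ± 0.05, adjusted p = 0.0537). BMP target genes did not move as a block, with Id1 higher in hepatocytes (1.79 ± 0.05), Smad7 higher in stellate cells (−1.23 ± 0.05) and Smad6 called toward stellate cells (−3.81 ± 0.06). Hamp2, a close copy of Hamp, was not tested, at 0.208 to 0.398 CPM in hepatocytes and at 0 in the stellate libraries, and reads of the copies can be divided between them.

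The 250 bases before the Hamp start site held none of the motifs searched on both strands, which were GTTAAT, the HNF4 site CAAAGTCCA, the TEAD core GGAATG, the TATA box TATAAA and the CArG box, and are shown as the promoter of the gene with the largest difference among the iron genes.
Hamp promoter, chr7:30944030-30944279, minus strand: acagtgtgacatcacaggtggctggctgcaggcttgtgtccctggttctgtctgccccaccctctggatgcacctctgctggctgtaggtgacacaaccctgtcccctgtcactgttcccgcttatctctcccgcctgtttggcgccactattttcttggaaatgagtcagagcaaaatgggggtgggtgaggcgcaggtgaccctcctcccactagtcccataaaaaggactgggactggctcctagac
Haem and iron-sulphur synthesis genes were mostly under the limit, with 1 of 25 called (median 0.12). Alas1, the first step of haem synthesis outside red cells, was at 135 to 156 CPM in hepatocytes and 145 to 153 CPM in stellate cells and did not pass (−0.02 ± 0.05, adjusted p = 0.643), while the called member, its erythroid form Alas2, was at 2.02 to 3.06 CPM against 0.178 to 0.271 CPM (3.41 ± 0.25). Of 8 metallothionein and zinc genes 6 were tested. The zinc importer Slc39a4 was called toward hepatocytes (207, 229 and 241 CPM against 12.8, 9.35, 9.73 and 6.82 CPM; 4.52 ± 0.11) and Slc39a10 toward stellate cells (−2.34 ± 0.06), and Mt1 and Mt2 differed by 0.61 ± 0.06 and 1.24 ± 0.07. The zinc exporter Slc30a1 was at 19.5 to 23.6 CPM against at most 0.127 CPM (8.53 ± 0.22) and is among the genes in doubt.

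**Figure D5:**
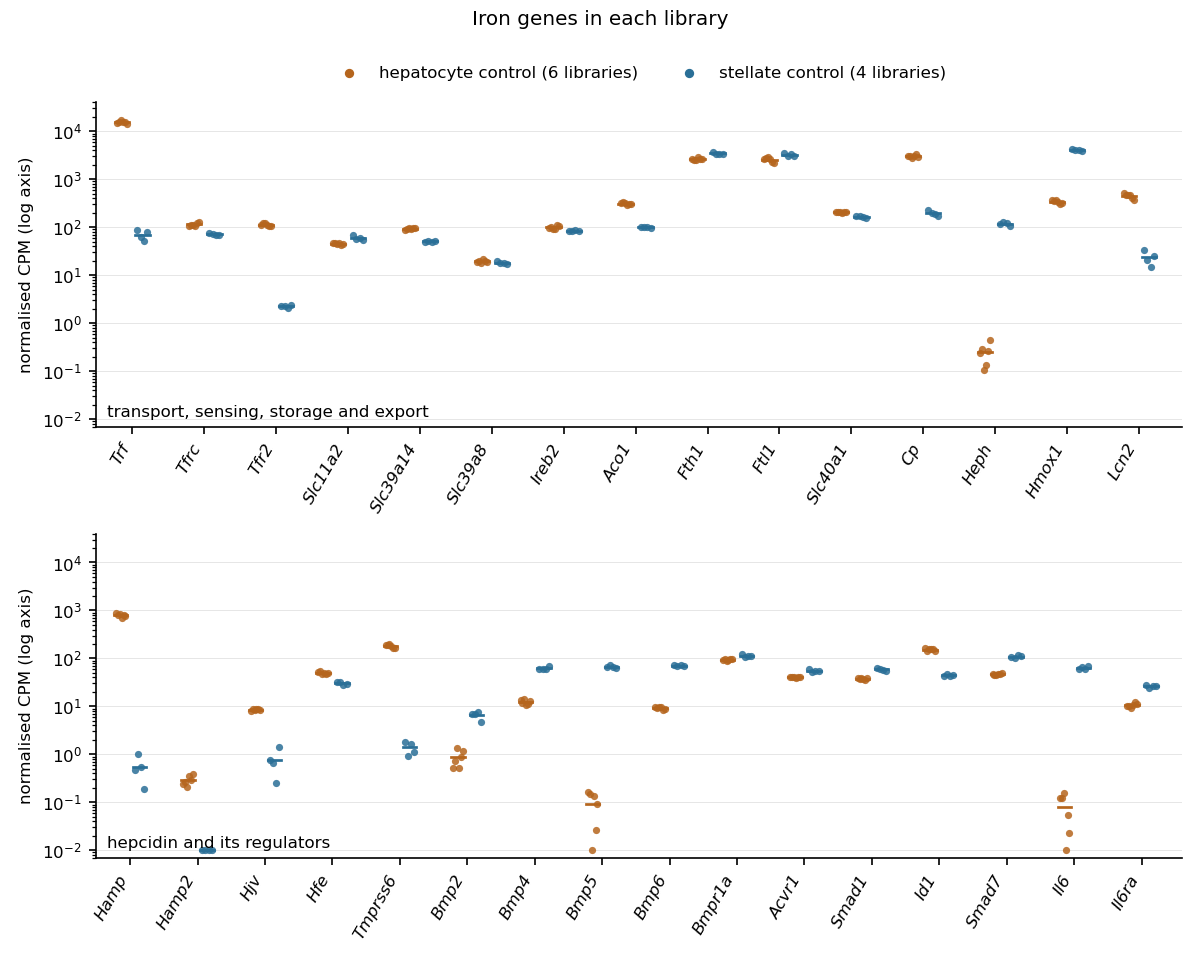
Level of iron genes in each library (normalised CPM, log axis, values under 0.01 drawn at 0.01), with 1 point per library and a bar at the group mean; upper panel transport, sensing, storage and export, lower panel hepcidin and its regulators. Slc40a1 and the ferritins lie together in both groups, whereas Heph at 109 to 131 CPM, Bmp5 and Il6 are found in the stellate libraries and Hamp and Tmprss6 in the hepatocyte libraries.

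The matrix was the largest block on the stellate side. Of 20 collagen genes 16 were called toward stellate cells and 2 toward hepatocytes (median −7.71), and their summed level was 838.7 to 918.3 CPM in hepatocytes against 22390 to 23640 CPM in stellate cells. Col4a1, of basement membrane, was the collagen of highest mean FPKM in stellate cells (692, with Col1a1 at 456), at 219, 227 and 252 CPM in hepatocytes and 5337, 5184, 5337 and 4848 CPM in stellate cells (−4.48 ± 0.05). Col3a1 and Col5a2, of fibrils, differed by −10.58 ± 0.17 and −10.52 ± 0.11. Col1a2 was at 0.457, 0.593 and 3.06 CPM in hepatocytes, where 1 library stood above the rest, and at 1682, 1603, 1820 and 1886 CPM in stellate cells (−10.94 ± 0.20). The exceptions were Col18a1, whose cleavage gives endostatin, at 258, 261 and 288 CPM against 33.7, 27.0, 38.0 and 32.2 CPM (3.03 ± 0.07), and Col15a1, its closest relative, at 9.34 to 11.8 CPM against 0.532 to 0.794 CPM (3.90 ± 0.14). Of 39 matrix glycoprotein and crosslinking genes 32 were called toward stellate cells (median −5.95). Sparc, which binds collagen, was at 15.7, 18.8 and 19.9 CPM against 5778, 5985, 5814 and 5666 CPM (−8.30 ± 0.07), the collagen chaperone Serpinh1 differed by −9.31 ± 0.10 and lysyl oxidase Lox by −5.95 ± 0.06. The proteoglycans Dcn (−11.28 ± 0.11), Bgn (−11.25 ± 0.11) and Lum (−11.59 ± 0.12) and fibrillin Fbn1 (−11.60 ± 0.10) were among the 15 largest called differences toward stellate cells at a mean of at least 50 FPKM. Mfap5 was at 0 in every hepatocyte library and at 78.1, 80.6, 76.5 and 90.5 CPM in stellate cells, at least 5466-fold higher against a floor of 3 counts over the 6 hepatocyte libraries. Osteopontin, Spp1, was the exception, at 1939, 2266 and 2390 CPM in hepatocytes against 99.7, 137, 149 and 126 CPM (4.12 ± 0.10), and fibronectin Fn1, which hepatocytes release into plasma, was at 5422, 5782 and 6278 CPM against 2120, 2296, 2452 and 2536 CPM (1.31 ± 0.06).

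Enzymes that cut the matrix and their inhibitors were called toward stellate cells in 14 of 21 cases and toward hepatocytes in 2 (median −3.60). Adamts5, an aggrecanase, was at 0.914, 1.10 and 1.39 CPM against 1113, 1076, 1092 and 1080 CPM (−9.96 ± 0.07), and the gelatinase Mmp2 differed by −9.63 ± 0.10 and stromelysin Mmp3 by −10.14 ± 0.12. The inhibitor Timp1, a fibrosis marker, was at 20.6, 22.4 and 25.0 CPM against 246, 292, 279 and 301 CPM (−3.62 ± 0.06). The exceptions were Mmp9 (3.42 ± 0.19) and Mmp15 (2.17 ± 0.08).

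Of 25 contractile and cytoskeletal genes 12 were called toward stellate cells and 1, Acta1 (2.22 ± 0.14), toward hepatocytes (median −1.64). Acta1 was not past the test against a difference of 2 (edgeR's glmTreat, adjusted p = 0.0822). Among the called genes were several typical of smooth muscle. Besides Acta2, transgelin Tagln was at 5.88, 6.74 and 7.11 CPM against 636, 637, 600 and 609 CPM (−6.55 ± 0.06), the light chain Myl9 at 6.07, 7.28 and 9.33 CPM against 611, 576, 564 and 566 CPM (−6.29 ± 0.08), and smooth muscle myosin Myh11 at 0.0731, 0.215 and 0.623 CPM against 97.2, 96.0, 89.7 and 75.0 CPM (−8.59 ± 0.15). Desmin, Des, the intermediate filament used to mark rodent stellate cells, differed by −8.57 ± 0.24. Forms of general use were closer, with Actb at −0.92 ± 0.05, Myh9 at 0.37 ± 0.05 and vimentin Vim at 2652, 2879 and 3160 CPM in hepatocytes and 2331, 2252, 2380 and 2378 CPM in stellate cells (0.31 ± 0.05). Vim is often used as a mesenchymal marker.

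The CArG box, the site of serum response factor, and GGAATG, the core of the TEAD site, were searched in 22 promoters of 21 contractile genes on both strands. The CArG box stood in 5 of 22 (22.7%, against 1.32% of promoters of genes tested), and GGAATG in 10 of 22 (45.5%, against 12.7%). Among all genes called toward stellate cells the shares were 1.33% and 14.3%. Among those called toward hepatocytes they were 2.13% and 15.1%, so neither motif was more frequent on the stellate side. The 5 CArG windows are shown with the box in capitals, since they lie in genes on both sides of the comparison.
Cnn2, chr10:79988534-79988563, plus strand: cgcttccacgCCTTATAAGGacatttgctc
Myl9, chr2:156775293-156775322, plus strand: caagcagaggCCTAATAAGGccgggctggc
Vcl, chr14:20929161-20929190, plus strand: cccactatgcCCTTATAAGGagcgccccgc
Actg1, chr11:120348566-120348595, minus strand: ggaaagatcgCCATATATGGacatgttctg
Acta1, chr8:123894829-123894858, minus strand: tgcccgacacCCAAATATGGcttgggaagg
Of these genes Cnn2 (−2.16 ± 0.05) and Myl9 were called toward stellate cells, Vcl (−1.64 ± 0.05) and Actg1 (−0.98 ± 0.05) were lower in hepatocytes without a call, and Acta1 was higher in hepatocytes. By the exact form searched (CC, then A or T only, then GG), no CArG box was found in the 250 bases before the Acta2 start site. The stretches ccctatatgg and ccttgtttgg there hold a C or a G inside the box and were not counted. GGAATG was found once, shown in capitals.
Acta2 promoter, chr19:34255374-34255623, minus strand: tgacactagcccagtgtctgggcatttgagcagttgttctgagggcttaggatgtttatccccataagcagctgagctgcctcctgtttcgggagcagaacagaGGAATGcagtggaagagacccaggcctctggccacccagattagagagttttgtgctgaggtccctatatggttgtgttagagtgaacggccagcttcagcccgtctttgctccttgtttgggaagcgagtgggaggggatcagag

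Genes of stellate identity and vitamin A handling were called toward stellate cells in 17 of the 22 tested of 26 members (median −5.19), and none toward hepatocytes. Lrat, which makes the stored retinyl esters, was at 0.0537, 0.160 and 0.204 CPM in hepatocytes and 17.9, 22.7, 22.3 and 18.3 CPM in stellate cells (−7.20 ± 0.18). Reelin, Reln, was at 0.0537, 0.239 and 0.311 CPM against 310, 315, 310 and 280 CPM (−10.58 ± 0.10), and cytoglobin Cygb differed by −9.80 ± 0.21. Gfap, a marker of quiescent stellate cells, was not tested and stayed at or under 0.540 CPM in every library. Of 20 transcription factors of stellate cells and mesenchyme 13 were called toward stellate cells and none toward hepatocytes (median −4.72). Hand2 (0 to 0.0731 CPM against 29.2 to 34.7 CPM; −9.66 ± 0.18), Tcf21 (−9.93 ± 0.27) and Prrx1 (−6.01 ± 0.07) were called, and Zeb1, an inducer of mesenchymal state, did not pass (−0.07 ± 0.06, adjusted p = 0.278). Pparg, tied to stellate quiescence and lipid storage, was higher in hepatocytes (1.04 ± 0.07). Of 18 TGF-beta and YAP targets 7 were called toward stellate cells (median −1.30), and Ccn2, which was not called, was at 779 to 870 CPM against 2094 to 2188 CPM (−1.37 ± 0.04).

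Of 36 growth factors and receptors 35 were tested, 6 called toward hepatocytes and 16 toward stellate cells (median −1.76). Hepatocyte growth factor, Hgf, was at 0.365, 0.439 and 0.571 CPM in hepatocytes and 57.0, 59.4, 50.5 and 52.0 CPM in stellate cells (−6.95 ± 0.10), while its receptor Met was at 164, 180 and 194 CPM against 47.1, 38.6, 40.1 and 33.4 CPM (2.16 ± 0.08, and 1.89 with no call once stellate control 3 was added). Insulin-like growth factor Igf1 was at 531, 572 and 611 CPM in hepatocytes and 39.0, 41.1, 39.1 and 35.0 CPM in stellate cells (3.90 ± 0.06), and its receptor Igf1r at 1.29, 1.45 and 1.97 CPM against 148, 136, 143 and 144 CPM (−6.56 ± 0.07). Pdgfb was at 67.2, 68.7 and 74.5 CPM in hepatocytes against 9.03 to 12.0 CPM in stellate cells (2.74 ± 0.07), with its receptor Pdgfrb on the stellate side as given above. Vegfc (−3.87 ± 0.07), a growth factor of vessels, was called toward stellate cells. Receptors of its family went both ways, with Kdr (−3.07 ± 0.12) and Flt1 (−4.64 ± 0.16) called toward stellate cells and Flt4 toward hepatocytes. Kdr and Flt4 are also among the endothelial markers below. Rspo3, which enhances WNT signals and shapes liver zonation, was at 0.245 to 0.464 CPM against 223 to 264 CPM (−9.38 ± 0.09). Chemokines went both ways, with 5 of the 20 tested of 22 called in each direction. Cxcl12 was at 33.7, 38.3 and 44.1 CPM against 1023, 1039, 1010 and 928 CPM (−4.70 ± 0.07), and Ccl9 differed by 5.21 ± 0.08. Complement and coagulation genes were called toward hepatocytes in 24 of 32 cases (median 4.56). Mbl2, the mannose-binding lectin, was at 571, 618 and 664 CPM against 2.80, 1.20, 1.81 and 2.60 CPM (8.16 ± 0.12). Called toward stellate cells were tissue factor F3 (−2.47 ± 0.05), thrombomodulin Thbd (−2.91 ± 0.06), Masp1 (69.9, 73.1 and 78.2 CPM against 1244, 1344, 1246 and 1095 CPM; −4.07 ± 0.06) and Cfd, whose 4 stellate values were spread widely, from 0.581 to 11.7 CPM.

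Markers of some other liver cells were present in both groups, and those of lymphocytes, neutrophils and erythroid cells were low in both. Of 16 Kupffer cell and macrophage markers 15 were tested, 7 were called toward hepatocytes and 1, Lyz2 (−2.08 ± 0.08, and −1.97 with no call once stellate control 3 was added), toward stellate cells (median 1.77). Their summed level was 380.5 to 414.9 CPM in hepatocytes and 225.7 to 324.2 CPM in stellate cells, where stellate control 5 was the lowest. Clec4f, which marks Kupffer cells, was at 4.03, 4.68 and 5.97 CPM against 0.381, 0.399, 0.426 and 0.465 CPM (3.54 ± 0.20), Cd14, which hepatocytes also express, at 109 to 136 CPM against 6.27 to 9.38 CPM, and Timd4 was at most 0.219 CPM in every library. The called iron gene Cd163 and the chemokines Ccl9 and Cxcl9 moved with them, and the 3 C1q chains are themselves among the markers. The part of macrophages in those results was not tested. Of 15 sinusoidal endothelial markers 7 were called toward stellate cells and 1, Flt4 (2.43 ± 0.07), toward hepatocytes (median −1.12), and their summed level was 90.49 to 104.5 CPM against 734.6 to 808.1 CPM. Eng, which stellate cells also express, made up 578 to 664 CPM of the stellate sum. Cdh5, which is specific for endothelium, was at 2.39, 2.57 and 2.83 CPM against 29.9, 37.4, 36.5 and 41.5 CPM (−3.80 ± 0.09) and Pecam1 differed by −3.30 ± 0.13, whereas Stab2 was at 2.28, 2.52 and 3.49 CPM against 2.00, 4.39, 2.17 and 4.30 CPM, overlapped and did not pass (−0.26 ± 0.21, adjusted p = 0.274). Bmp2, Bmp6, Rspo3, Thbd and Flt1, which liver endothelium also expresses, moved with these markers, and Kdr is itself among the markers. The part of endothelial cells in those results was not tested.

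Of 10 cholangiocyte markers 6 were tested and 4 were called toward hepatocytes, among them Krt19 (206, 226 and 273 CPM against 3.62, 5.58, 4.26 and 4.53 CPM; 5.69 ± 0.11), Cldn4 (5.61 ± 0.12) and Spp1. The defining markers Epcam, Cftr and Anxa13 were not tested and stayed at or under 0.736 CPM, and Sox9 differed by 1.33 ± 0.10. Of 8 mesothelial markers 7 were tested, 1 was called toward hepatocytes, Krt19, and 5 toward stellate cells, among them Upk3b (at most 0.156 CPM against 3.25 to 7.35 CPM; −5.95 ± 0.33) and Wt1 (−8.88 ± 0.28), which stellate cells of some stages also express, and Muc16 was at most 0.0519 CPM. Their summed level, most of it Krt19 in hepatocytes, was 209.1 to 276.3 CPM in hepatocytes and 34.62 to 57.55 CPM in stellate cells. Of 10 portal fibroblast and muscle markers 8 were tested and 6 called toward stellate cells, among them Thy1 (0.489 to 1.09 CPM against 72.7 to 96.4 CPM; −6.77 ± 0.12) and elastin Eln, whose stellate values of 38.3, 92.7, 45.0 and 69.7 CPM varied (−10.62 ± 0.38). Gli1 was not tested and was at most 0.213 CPM. The collagens and smooth muscle genes above moved with these markers, and Myh11 and Mfap5, given above, are themselves among the markers. The part of portal fibroblasts and muscle cells in those results was not tested. Of 11 lymphocyte markers none was tested, and their summed level was 0.934 CPM or less in every hepatocyte library. Neutrophil markers (9, 4 tested) were low, with Mmp8 called toward stellate cells (at most 0.171 CPM in hepatocytes against 1.39 to 2.98 CPM). Of 8 erythroid markers 2 were tested, and no globin gene exceeded 1.49 CPM in any library.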

How the data were processed

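Gene-level RNA-seq was analysed from untreated primary mouse hepatocytes (6 libraries) and hepatic stellate cells (4 of 5 libraries). The authors deposited whole-number read counts and FPKM per Ensembl gene in a separate table for each cell type. The deposited FPKM equalled counts scaled to exon length and library total to within 0.494% for values above 1. The tools named in the submitters' processing notes are HISAT2 2.0.1 and cutadapt 1.9.1, with the build mm10. How reads were counted, with which annotation and whether by strand, is not given in the sources used here, and genes that overlap an antisense gene cannot be told apart from it. Per the labels' protocols, a small RNA library kit was used and groups had 4 biological replicates, whereas 6 and 5 are listed; small RNA genes held at most 0.245% of counts in the 10 libraries and 5.03% in stellate control 3.

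The tables were joined on gene ID (55234 genes shared, 167 and 339 in 1 table only, 303 with another exonic size). Counts were tested with edgeR 4.0.16 in R 4.3.3 (TMM, filterByExpr, quasi-likelihood F test, Benjamini-Hochberg adjustment, no covariate), and a call required adjusted p under 0.05 and a log2 difference of at least 2. The SE is the one the F value implies. Medians over members cover tested ones only. The fit was tested on simulated data. Alternatives were DESeq2 1.42.0, limma 3.58.1 (voom with quality weights), other scalings and filters, another limit, stellate control 3 added, each library left out, and the replicate number as a block.

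Some genes of the lists are counted but not reported here by name. The members and gene lists were chosen with earlier results of these data known. Named genes are the 6 markers, the iron lists, the 15 largest differences in each direction at FPKM of at least 50, up to 6 of highest FPKM and up to 4 of largest difference in each other list, members called against their list and all listed enzyme forms. Other genes were chosen after their values were seen, among them those named for low levels, for the promoter windows or as neighbours. Promoter sequences are from RefSeq. Libraries of a group differed by more than counting noise (lowest chi-square per degree of freedom 3.44 in hepatocytes and 5.59 in stellate cells), so none was treated as 1 library deposited again. This does not show that they came from separate cultures.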

Additional observations from a re-analysis of the deposited data

Results flagged for a closer look

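A sample was looked at again when its gap to the nearest other library of its group was large for the range of that group (Dixon's 95% limit), which chance does for about 1 group in 20. Of 126 groups of values 9 were found. Fth1 was 2940 CPM in hepatocyte control 4 against 2540 to 2670 CPM in the other 5, and 3790 CPM in stellate control 1 against 3350 to 3400 CPM in the other 3. Slc40a1 was 197 CPM in hepatocyte control 4 against 204 to 209 CPM. Stab2 was 3.49 CPM in hepatocyte control 6 against 2.28 to 2.62 CPM. Col1a2 was 3.06 CPM in hepatocyte control 3 against 0.456 to 1.18 CPM, and the summed lymphocyte markers of that library were 0.934 CPM against 0.483 to 0.652 CPM. In stellate control 1 the summed amino acid catabolism genes were 231 CPM against 207 to 210 CPM and the summed bile acid genes 200 CPM against 165 to 170 CPM. In stellate control 5 the summed Kupffer cell and macrophage markers were 226 CPM against 314 to 324 CPM.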

How the results depend on the processing

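Genes called higher in hepatocytes and in stellate cells (1618 and 2349) numbered 2513 and 4067 with no expression filter, where 30957 genes were tested, and 2840 and 3712 with a difference of at least 1. Leaving out each library gave 1570 to 1705, 2343 to 2442 and, at any size, 13250 to 13654. No pairing by replicate number was seen (correlation of deviations of same-numbered libraries −0.011 to 0.033), which cannot exclude pairing between different cell types. With the replicate block the counts were 1619, 2362 and 13145. With stellate control 3 they were 1545, 2249 and 11234. Chosen after seeing the data, genes with the same model in both tables gave 1596 and 2305, and genes outside the runs of neighbours 1453 and 2263. Of 393 named genes tested, 14 changed their call and 0 their direction under the 21 alternatives with values for them (385 to 393 genes each), none of them a gene of the 4 iron lists. Tested against a difference of 2 (glmTreat) the counts were 1366 and 2122, and Acta1, Gata4, Gstm2, Tpm4, Lyz2 and Adh7 lost the call. With stellate control 3 added, Met (1.89), Tpm4 (−1.95), Gstm2 (−1.92) and Lyz2 (−1.97) lost the call. Adh7 lost it without stellate control 1 (−1.37) and with the replicate block (−1.98). Genes under about 1 CPM rest on few counts.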

Other observations

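The Hox genes, homeobox factors that record position along the body axis, were found in the stellate cells. They were chosen after the values were seen. Of 39 Hox genes 23 were tested and all 23 were called toward stellate cells (median log2 difference −8.62), 7 of Hoxa, 8 of Hoxb, 5 of Hoxc and 3 of Hoxd. Their summed level was 0.6002 to 1.56 CPM in hepatocytes and 167.2 to 179.8 CPM in stellate cells, of which Hoxa gave 72.3 to 84.8 CPM, Hoxb 64.1 to 68.4 CPM, Hoxc 21.7 to 27.8 CPM and Hoxd 4.04 to 5.47 CPM. Clustered families of secreted and metabolic proteins ran toward hepatocytes. All 18 tested major urinary protein genes (22 in all) were called, with sums of 2076 to 2268 CPM against 16.0 to 22.8 CPM, as were 10 tested Cyp2c genes (335.3 to 432.7 CPM against 3.91 to 16.5 CPM) and 6 tested Ces1 carboxylesterase genes (104.0 to 123.2 CPM against 4.16 to 6.16 CPM). Mup14, at 0 counts in all 10 libraries of the stellate table, shares near-identical copies, among which reads can be divided.

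The calls were also compared with the treated libraries, 6 hepatocyte libraries with DFO and 3 stellate libraries with iron (those with an FPKM sum under the limit of 400000), which differ in treatment as well. The treated libraries stand in the same tables, so cell type and table cannot be told apart there either. A difference made by the tables would be called again. Of the 1618 genes called toward hepatocytes 1580 were tested there and 1370 (84.7% of the 1618) were called again. Of the 2349 toward stellate cells 2225 were tested there and 1949 (83.0% of the 2349) were called again. Called in the opposite direction were Cd163 (log2 difference 3.32 untreated and −4.28 treated), Clec4f (3.54 and −3.69), Cd5l (2.24 and −3.91), Vsig4 (4.33 and −2.84), Ccdc148 (2.27 and −2.27) and Myoc (−7.13 and 2.72), the first 4 of which are macrophage genes.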
